A study of Homo sapiens with 6 samples.

Results

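The SLC25 family comprises the carriers that move metabolites across the mitochondrial inner membrane, and the uncoupling proteins belong to the same family. Their transcripts were followed in the human leukaemia line DND41, of T-cell acute lymphoblastic origin, given MB1-47 or its control DMSO for 24 h. MB1-47 is described in the study's title as a drug that uncouples mitochondria. Members were the protein-coding genes of the deposited table whose symbol starts with SLC25A, together with UCP2 and UCP3, with a mean of at least 10 normalized counts over the 6 libraries. This gave 43 of the 17202 genes in the table. The rule used the mean over both groups and not the difference between them. SLC25A48, with a mean of 11.5, was just inside that limit, and SLC25A52 (9.47) and SLC25A41 (2.34) were outside it. SLC25A31, SLC25A2, SLC25A27, SLC25A43 and SLC25A47 had no entry in the table under these symbols and could not be analysed.

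Each group had 3 libraries of total RNA, named MB1-47 1 to 3 and DMSO 1 to 3. All cells were grown in RPMI with 10% serum, and the treated cells received MB1-47 at 4 mM, the unit being that of the labels. Cells were plated in triplicate; nothing says that the triplicates were independent cultures, and the p-values cover no more than the variation among these 6 libraries, some of which may be technical. Both groups are the same single leukaemia line without any genetic change named in the labels. Values are normalized counts whose sums ran from 28323706 to 29673925 in the MB1-47 libraries and from 30788198 to 32667526 in the DMSO libraries. The depth of the libraries is unknown. Of the T-lineage markers, CD3E was at 9647 to 11120 with MB1-47 and 10858 to 11965 with DMSO, CD7 at 2085 to 2442 with MB1-47 and 8632 to 10447 with DMSO, and CD5 at 0 to 25.9 over all libraries. Of the B-lineage markers, CD79A was at 6378 to 7102 with MB1-47 and 15937 to 17081 with DMSO, while PAX5 stayed at or below 23.1; the myeloid markers CD14 and LYZ stayed at or below 21.9. The part of these markers in the results was not tested. DMSO replicate 1 stood apart from the other DMSO libraries on the second principal component, which held 18.5% of the variance; without it 7 carriers were higher and 13 lower, against 7 and 15 with it.

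A carrier of this family is folded from repeats of the same short unit and usually exchanges one small molecule for another. The ADP/ATP carriers and the phosphate carrier feed ATP synthase with its substrates, and others supply the matrix with amino acids, nucleotides, cofactors and iron, or pass the acids of the citric acid cycle in and out. Uncoupling proteins can let protons return to the matrix without ATP synthesis, although UCP2 is also known to carry metabolites. In dividing leukaemia cells the same carriers connect the cytosol to mitochondrial amino acid, nucleotide and folate metabolism.

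Carrier genes went both ways after MB1-47, and in several substrate classes some members rose while others fell. Of the 43 members, 7 rose and 15 fell at an adjusted p under 0.05, which is 16.3% higher and 34.9% lower. Across all 13465 genes tested, 18.3% were higher and 19.8% lower. In either direction 51.2% of members passed, against 38.1% of all genes. The groups did not overlap in 11 members that were higher and 17 that were lower with MB1-47; such separation was seen in 49.3% of all genes, 24.1% higher and 25.2% lower. These shares were not tested against each other, and the members and classes were chosen with earlier results of these data known. The median change of the members was -0.22 on the log2 scale, against 0.02 over all genes tested. In bulk RNA, fewer cells of a type and less RNA per cell cannot be told apart. The split depended on scaling: after scaling to equal library totals, all genes had a median of 0.15, and 12 members were higher and 12 lower, with no member that passed changing sign. SLC25A10, UCP2, SLC25A22 and SLC25A39 fell at least 2-fold and SLC25A45 rose at least 2-fold.

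**Figure D1:**
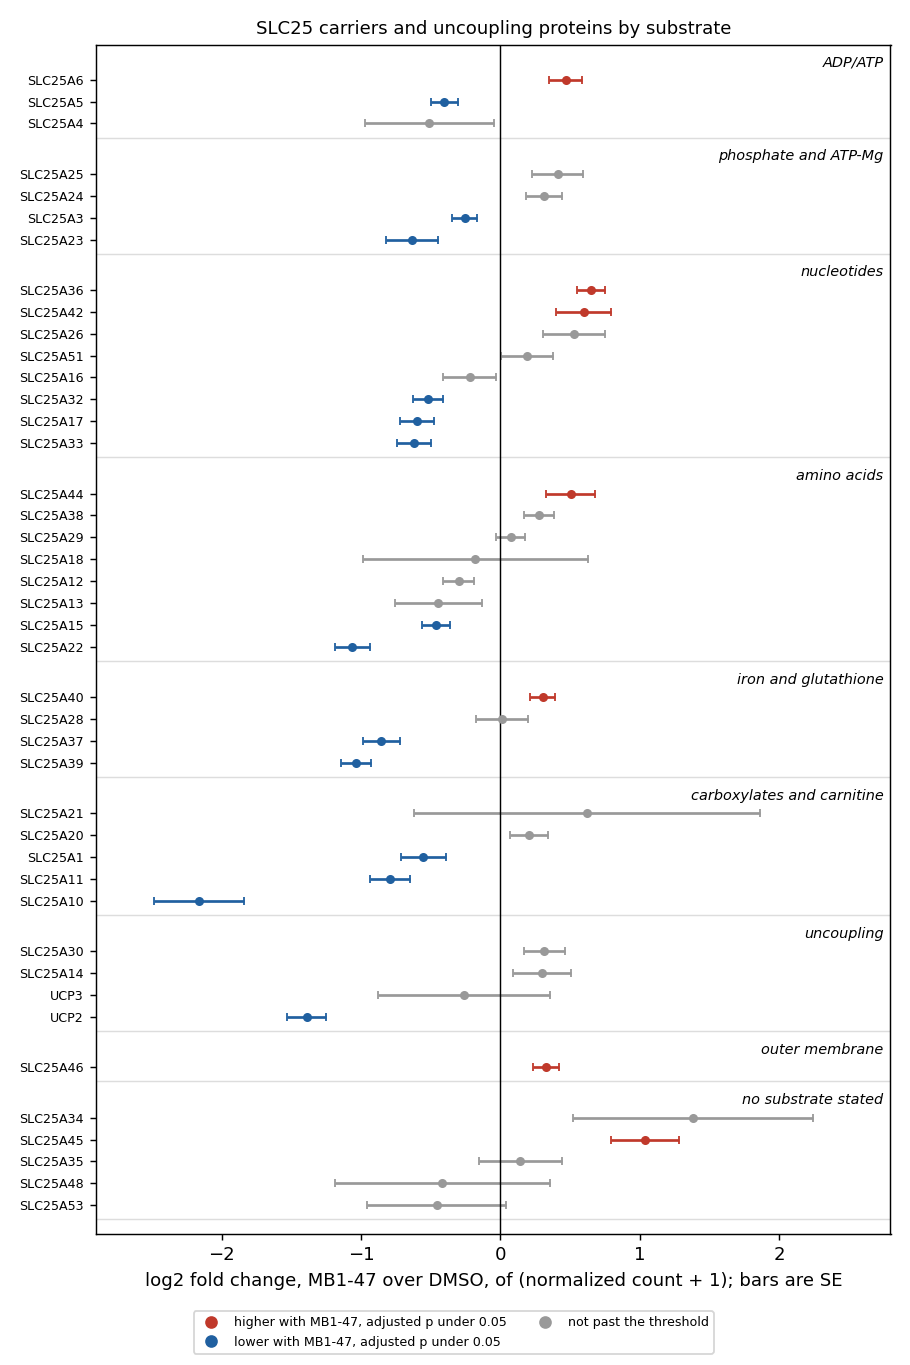
Log2 fold change of MB1-47 over DMSO on the scale of normalized count + 1 for the members reported here, arranged by substrate, with bars for the SE (3 libraries a group). Red and blue points passed an adjusted p of 0.05 in the limma fit; the largest fall among those that passed is SLC25A10 (-2.16 ± 0.33) and the largest rise is SLC25A45 (1.04 ± 0.25), and most substrate classes hold points on both sides of 0.

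Normalized counts summed over the 43 members made up 0.279%, 0.284% and 0.284% of the total in the MB1-47 libraries, against 0.292%, 0.276% and 0.297% in the DMSO libraries. The groups overlapped in this share. Within the family, levels per kilobase of transcript spanned a wide range, and SLC25A5 and SLC25A3 stood far above the rest: together they held 51.4% of the summed level per kilobase with MB1-47 and 54.9% with DMSO. At the low end, SLC25A34, SLC25A18, SLC25A21, SLC25A48, SLC25A4 and UCP3 had means under 50 normalized counts, and none of these 6 passed the test.

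The main ADP/ATP carriers moved in opposite directions. SLC25A5, which encodes ANT2, the form typical of dividing cells, had 12887, 15289 and 14816 normalized counts in MB1-47 libraries 1, 2 and 3, against 19064, 16959 and 20807 in DMSO libraries 1, 2 and 3. Every MB1-47 library was below every DMSO library. It fell 1.32-fold (log2 change ± SE of -0.40 ± 0.10, limma adjusted p = 0.00703; changes in parentheses are given this way throughout) and lies on chromosome X, 119468400 to 119471319 (GENCODE 29 on GRCh38). With quantile normalization the change was -0.19 and the call was lost (adjusted p = 0.148), as it was without the intensity trend (adjusted p = 0.0592). SLC25A6, which encodes ANT3 and lies in the pseudoautosomal region (chromosome X, 1386152 to 1392724), had 1908, 2179 and 2481 normalized counts with MB1-47, against 1646, 1520.4 and 1553 with DMSO. All MB1-47 libraries were above all DMSO libraries, with a 1.38-fold rise (0.47 ± 0.12, adjusted p = 0.00848) that passed under each of 15 alternative settings. SLC25A4, the ANT1 form of heart and muscle, was low, at 24.6, 34.9 and 26.8 in the MB1-47 libraries and 46.9, 37.0 and 39.4 in the DMSO libraries. Its groups did not overlap, and its change of -0.51 ± 0.46 did not pass (adjusted p = 0.421).

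In counts per kilobase of the ADP/ATP carriers, SLC25A5 remained the main form, at 91.6, 91.9 and 90.6% with MB1-47, against 94.9, 94.7 and 95.5% with DMSO. SLC25A6 made up 8.38, 8.09 and 9.37% with MB1-47, against 5.06, 5.25 and 4.41% with DMSO. The groups were separate in both shares, and the exact two-sided permutation p was 0.1 for each, the lowest that 3 against 3 libraries allow. Adjusted over the 16 shares compared in 7 paralog sets by the Benjamini-Hochberg method, it was 0.133.

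The promoters of this pair are shown because paralogs with the same substrate differed in direction. They are the 250 bases before the gene start given by RefSeq on GRCh38.p14 (chrX:119468194-119468443, plus strand for SLC25A5 and chrX:1392114-1392363, minus strand for SLC25A6). RefSeq's start differs from that of GENCODE 29: the SLC25A6 window lies inside the GENCODE gene, and the SLC25A5 window runs past the GENCODE start. Capitals mark CCAAT or its reverse complement ATTGG.
SLC25A5: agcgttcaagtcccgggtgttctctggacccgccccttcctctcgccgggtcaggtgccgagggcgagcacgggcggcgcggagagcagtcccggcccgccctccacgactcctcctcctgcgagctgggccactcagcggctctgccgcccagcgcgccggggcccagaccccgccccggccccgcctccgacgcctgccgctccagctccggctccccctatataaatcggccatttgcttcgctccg
SLC25A6: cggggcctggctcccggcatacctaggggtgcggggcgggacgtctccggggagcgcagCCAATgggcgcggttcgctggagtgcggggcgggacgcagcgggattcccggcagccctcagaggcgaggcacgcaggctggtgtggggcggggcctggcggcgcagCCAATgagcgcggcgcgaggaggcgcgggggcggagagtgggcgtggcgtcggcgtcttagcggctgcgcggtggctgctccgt
SLC25A6 held the CCAAT letters at 2 places and SLC25A5 at none. They were found in 32.0% of the 35087 promoters of the table and in 21 of the 48 promoters of the 37 members matched there (43.8%). Members with these letters went both ways. Of them, SLC25A1, SLC25A3, SLC25A17, SLC25A22, SLC25A23, SLC25A33 and UCP2 fell, and SLC25A6, SLC25A36, SLC25A42, SLC25A44 and SLC25A45 rose. The other members with these letters did not pass. Of the SLC25A5 transcript letters, read as runs of 31 bases, 31.8% also occur in other GENCODE 29 genes, among them its antisense gene (13.3%) and the pseudogene SLC25A5P1 (5.01%), so its level is less certain than that of SLC25A6, where the share is 2.28%.

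Among phosphate and ATP-Mg carriers, the abundant phosphate carrier was slightly lower. SLC25A3, which brings phosphate into the matrix for ATP synthase, had 16095, 15745 and 16955 normalized counts in MB1-47 libraries 1, 2 and 3, against 20745, 16965 and 20782 in DMSO libraries 1, 2 and 3. All MB1-47 values were below the DMSO values, DMSO replicate 2 being nearly level with MB1-47 replicate 3. It fell 1.19-fold (-0.26 ± 0.09, adjusted p = 0.0467), a call that was lost without MB1-47 replicate 1, 2 or 3 (adjusted p = 0.11, 0.101 and 0.0715) and without DMSO replicate 1 or 3 (0.145 and 0.175). With quantile normalization the change was -0.01 and with equal library totals -0.13, neither past the threshold, and the call was also lost without the intensity trend (adjusted p = 0.152) and without the filter (0.0555).

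The calcium-regulated ATP-Mg/phosphate carriers, which set the size of the matrix adenine nucleotide pool, did not move together. SLC25A23 had 508, 701 and 455 normalized counts with MB1-47, against 1005, 771 and 779 with DMSO. Its groups were separate and it fell 1.55-fold (-0.63 ± 0.19, adjusted p = 0.0207). The call was lost without MB1-47 replicate 1 (adjusted p = 0.0632), MB1-47 replicate 3 (0.0809) or DMSO replicate 1 (0.0725), with equal library totals (0.0622) and without the intensity trend (0.0703). SLC25A24 stood at 2169.9 ± 295 normalized counts with MB1-47 and 1739 ± 168 with DMSO (SD, n = 3), a change of 0.31 ± 0.13 that missed the threshold (adjusted p = 0.074). It passed without MB1-47 replicate 2 (0.0187) or DMSO replicate 1 (0.0475). It also passed with equal library totals (0.0108), the replicate block (0.0358) and, barely, TMM scaling (0.049996). SLC25A25 stood at 433 ± 42.4 normalized counts with MB1-47 and 326 ± 41.5 with DMSO (0.41 ± 0.18, adjusted p = 0.0989, and 0.0413 with equal library totals). Of the counts per kilobase of this set, SLC25A23 made up 18.1, 26.8 and 16.6% with MB1-47, against 35.6, 32.1 and 31.4% with DMSO. SLC25A24 made up 68.4, 56.2 and 66.7% with MB1-47, against 54.7, 53.7 and 54.5% with DMSO. Both shares were separate between the groups (exact permutation p = 0.1 each, adjusted 0.133).

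**Figure D2:**
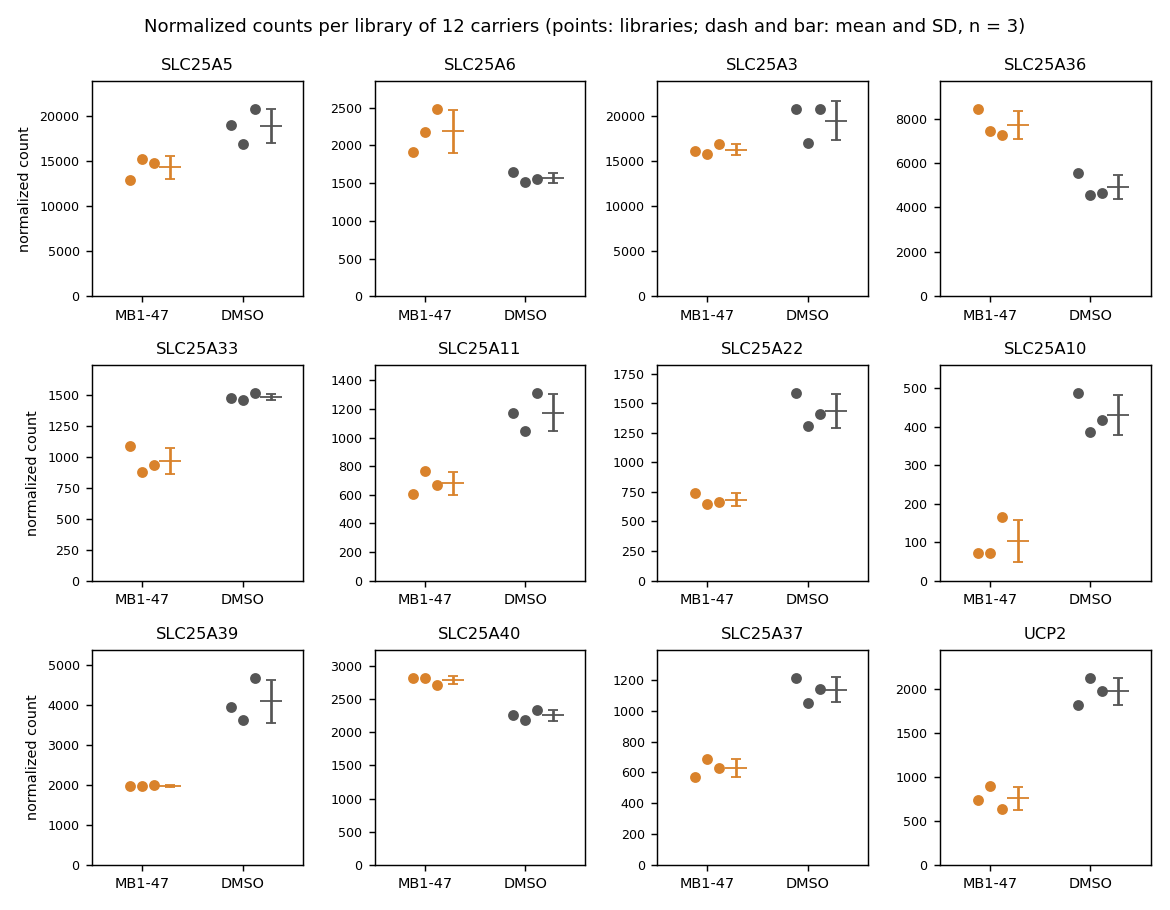
Normalized counts of 12 carriers in each library on linear axes from 0, with MB1-47 libraries in orange left of DMSO libraries in grey, and the mean and SD (n = 3) beside the points. The 12 were picked from members that passed the threshold, so the separate groups in all 12 panels follow from that choice. Of all 43 members, 11 were separate and higher and 17 separate and lower. Among all genes tested 49.3% were separate. SLC25A6, SLC25A36 and SLC25A40 are higher with MB1-47 and the other 9 are lower.

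Carriers of nucleotides and of cofactors, taken here as a single class, held a further pair of opposite changes. Of 9 tested members, 4 fell (44.4%) and 2 rose (22.2%), against 19.8% lower and 18.3% higher among all genes tested. SLC25A36, a pyrimidine nucleotide carrier, had 8429, 7450.02 and 7281 normalized counts in MB1-47 libraries 1, 2 and 3, against 5565, 4551 and 4670.5 in DMSO libraries 1, 2 and 3. All MB1-47 libraries lay above all DMSO libraries, and the gene rose 1.57-fold (0.65 ± 0.10, adjusted p = 0.000441). SLC25A33, the other pyrimidine nucleotide carrier, had 1086, 879 and 937 normalized counts with MB1-47, against 1477, 1456 and 1510.4 with DMSO. Here every MB1-47 library lay below every DMSO library, and the gene fell 1.54-fold (-0.62 ± 0.12, adjusted p = 0.00185). Its level is less certain, since 31.8% of its runs of 31 bases also occur in other genes, 19.6% in AC135977.1, which is a separate entry of the table; for SLC25A36 the share is 0.22%. Both calls held under each of 15 alternative settings. The share of SLC25A36 in the pair, in counts per kilobase, was 86.6, 87.6 and 86.6% with MB1-47, against 75.8, 72.2 and 72.0% with DMSO, with separate groups (exact permutation p = 0.1, adjusted 0.133).

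The 250 bases before both RefSeq starts are printed because this pair shares its substrate and its promoter letters but not its direction. Capitals mark CACGTG (the E-box letters), TGACGTCA (the cyclic AMP response element) and CCAAT, each searched on both strands. They come from RefSeq on GRCh38.p14, at chr1:9539215-9539464, plus strand and chr3:140941586-140941835, plus strand.
SLC25A33: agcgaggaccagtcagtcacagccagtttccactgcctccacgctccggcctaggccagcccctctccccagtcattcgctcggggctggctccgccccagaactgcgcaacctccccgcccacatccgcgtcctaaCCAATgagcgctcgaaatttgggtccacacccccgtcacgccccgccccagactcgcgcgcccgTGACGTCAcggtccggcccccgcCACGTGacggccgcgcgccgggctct
SLC25A36: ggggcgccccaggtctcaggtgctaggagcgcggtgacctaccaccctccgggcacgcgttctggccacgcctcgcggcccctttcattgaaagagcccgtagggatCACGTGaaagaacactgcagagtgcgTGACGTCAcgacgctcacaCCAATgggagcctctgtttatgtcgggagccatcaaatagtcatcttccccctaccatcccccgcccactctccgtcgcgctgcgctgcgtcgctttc
Both windows hold all 3 motifs once, with no overlap between them. In SLC25A36 the E-box letters lie farther from the start than the TGACGTCA letters, and in SLC25A33 they lie nearer to it. CACGTG was found in 7 of 48 member promoters (14.6%) and in 6.34% of all 35087 promoters, and TGACGTCA in 3 of 48 (6.25%) and in 1.65%. The members with CACGTG were SLC25A33, which fell, SLC25A36 and SLC25A46, which rose, and SLC25A13, SLC25A26, SLC25A38 and SLC25A51, which did not pass. CCGGAAGT, the letters of an ETS site, was found in 4 of 48 (8.33%) and in 3.42% of all promoters. A palindromic form of the NRF1 site (1.03% of all promoters), and TGATGCAA, a form of the ATF4 composite site (0.772%), were in none of the member windows. A match describes these letters and shows no binding.

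Folate and cofactor carriers were among those that fell. SLC25A32, linked to folate and FAD import, had 2306, 1957 and 2441 normalized counts with MB1-47, against 3345, 2977 and 3249 with DMSO. SLC25A17, a carrier of coenzyme A, FAD and NAD in peroxisomes rather than mitochondria, had 981, 963 and 1102 in the MB1-47 libraries and 1497, 1409 and 1711 in the DMSO libraries. In neither gene did the groups overlap, and SLC25A32 fell 1.43-fold (-0.52 ± 0.11, adjusted p = 0.00302) and SLC25A17 1.51-fold (-0.60 ± 0.12, adjusted p = 0.00262). SLC25A32 is uncertain as a gene level, since 78.0% of its runs of 31 bases also occur in other genes, and 67.9% occur in AC012213.5, which is a separate entry of the table.

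SLC25A42, a coenzyme A carrier, was on the other side with 556, 518 and 388 normalized counts in MB1-47 libraries 1, 2 and 3, against 306, 365 and 288 in DMSO libraries 1, 2 and 3. Its MB1-47 libraries were all higher, MB1-47 replicate 3 being close to DMSO replicate 2, and it rose 1.51-fold (0.60 ± 0.19, adjusted p = 0.032). That call was lost without MB1-47 replicate 1 or 2 (adjusted p = 0.118 and 0.0931) or DMSO replicate 1 or 3 (0.0675 and 0.101), and without the intensity trend (0.0544). The other 3 members did not pass. SLC25A26, which imports S-adenosylmethionine, stood at 349 ± 78.2 normalized counts with MB1-47 and 239 ± 31.2 with DMSO (0.53 ± 0.22, adjusted p = 0.0835). The adjusted p was 0.0463 without MB1-47 replicate 2 and 0.0347 with equal library totals. SLC25A51, the NAD carrier, stood at 411 ± 39.3 normalized counts with MB1-47 and 363 ± 62.3 with DMSO (0.19 ± 0.19, adjusted p = 0.467), and SLC25A16, linked to coenzyme A, at 705 ± 145 normalized counts with MB1-47 and 818 ± 142 with DMSO (-0.22 ± 0.19, adjusted p = 0.4).

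Amino acid carriers were led by the fall of the glutamate carrier. SLC25A22, which imports glutamate with a proton, had 744, 648 and 664 normalized counts in MB1-47 libraries 1, 2 and 3, against 1582, 1304 and 1411 in DMSO libraries 1, 2 and 3. The groups were far apart, with a 2.09-fold fall (-1.06 ± 0.13, adjusted p = 8.0e-05). SLC25A18, the other glutamate carrier, was near the filter in both groups, at 12.6 ± 8.67 normalized counts with MB1-47 and 13.3 ± 5.44 with DMSO (-0.18 ± 0.81, adjusted p = 0.883). SLC25A15, which exchanges ornithine and citrulline, had 2790.1, 2710.1 and 3284 normalized counts with MB1-47, against 4294, 3979 and 3786 with DMSO and fell 1.38-fold with separate groups (-0.46 ± 0.10, adjusted p = 0.00439). SLC25A44, a carrier of branched-chain amino acids, had 1264, 1110.3 and 1409 in the MB1-47 libraries and 671, 1007 and 1027 in the DMSO libraries. Its MB1-47 libraries were higher without overlap, DMSO replicate 1 being the lowest library, and it rose 1.42-fold (0.50 ± 0.18, adjusted p = 0.042). The call was lost without MB1-47 replicate 1 (adjusted p = 0.0925), MB1-47 replicate 3 (0.141) or DMSO replicate 1, where the change was 0.30 (0.129), and without the intensity trend (0.122).

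The other amino acid carriers did not pass. SLC25A38, the glycine carrier that serves haem synthesis, stood at 4433 ± 468 normalized counts with MB1-47 and 3663 ± 351 with DMSO (0.27 ± 0.11, adjusted p = 0.0682), without overlap. It passed without MB1-47 replicate 2 (adjusted p = 0.0281) and with equal library totals (0.00594). It also passed with TMM scaling (0.0404), quantile normalization (0.0274) and the replicate block (0.0247). The aspartate/glutamate carriers of the malate-aspartate shuttle, SLC25A12 and SLC25A13, stood at 1548 ± 177 normalized counts with MB1-47 and 1898 ± 57.2 with DMSO, and at 199 ± 63.1 normalized counts with MB1-47 and 275 ± 91.2 with DMSO. SLC25A12 changed by -0.30 ± 0.11 (adjusted p = 0.0563), with an adjusted p of 0.0208 without MB1-47 replicate 2 and 0.0472 with the filter at 50. SLC25A13 changed by -0.45 ± 0.31, adjusted p = 0.295. The share of SLC25A12 in that pair overlapped between groups, at 89.8, 92.4 and 84.7% with MB1-47, against 86.4, 85.8 and 91.9% with DMSO (exact permutation p = 0.9). SLC25A29, a carrier of basic amino acids, stood at 2656 ± 249.8 normalized counts with MB1-47 and 2519 ± 115 with DMSO (0.07 ± 0.10, adjusted p = 0.614).

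**Figure D3:**
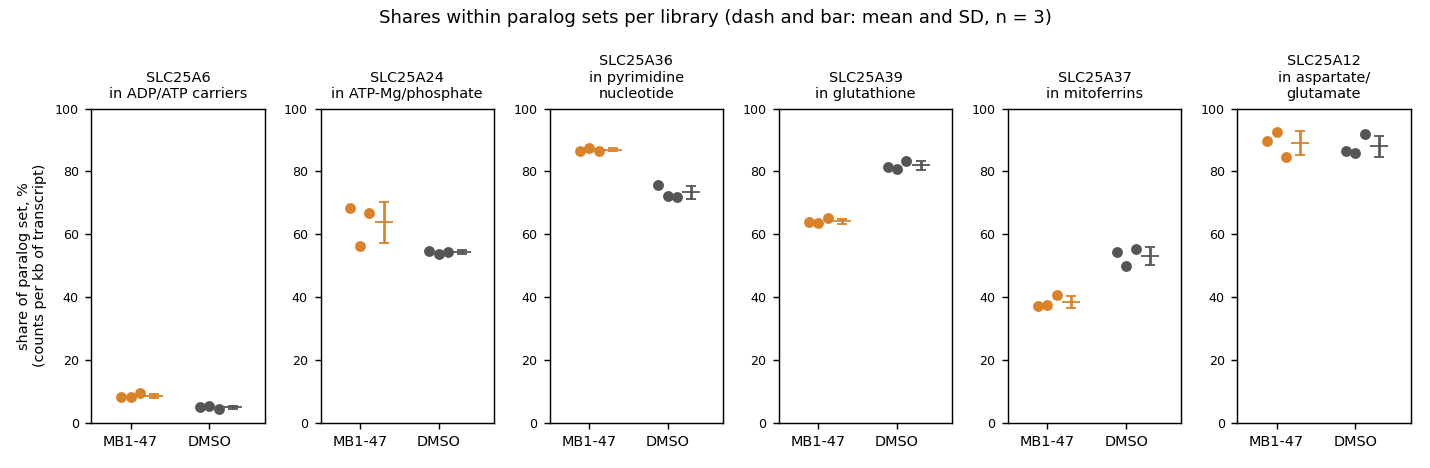
Share of one member within its paralog set in each library, in percent of the summed counts per kilobase, with MB1-47 left of DMSO and the mean and SD (n = 3) beside the points. The groups are separate for SLC25A6, SLC25A24, SLC25A36, SLC25A39 and SLC25A37 and overlap for SLC25A12.

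Among iron and glutathione carriers, SLC25A37 and SLC25A39 fell and SLC25A40 rose, while SLC25A28 did not pass. SLC25A37 (mitoferrin-1), the iron importer known for haem synthesis in erythroid cells, had 569.5, 686 and 630.4 normalized counts in MB1-47 libraries 1, 2 and 3, against 1216, 1053 and 1142 in DMSO libraries 1, 2 and 3. Every MB1-47 library was far below every DMSO library, with a 1.81-fold fall (-0.86 ± 0.13, adjusted p = 0.000442). SLC25A28 (mitoferrin-2), the widely expressed form, had 291, 343 and 277 normalized counts with MB1-47, against 309, 318 and 276 with DMSO. Its groups overlapped and its change was 0.01 ± 0.19, adjusted p = 0.975, with a sign that turned with quantile normalization (-0.014) and without MB1-47 replicate 2 (-0.082) or DMSO replicate 3 (-0.051). Of the mitoferrin counts per kilobase, SLC25A37 made up 37.1, 37.6 and 40.6% with MB1-47, against 54.2, 49.9 and 55.4% with DMSO, with separate groups (exact permutation p = 0.1, adjusted 0.133). Which form is larger depended on the transcript lengths used, 4823 bases for SLC25A37 and 1451 for SLC25A28. Without length, mean normalized counts of SLC25A37 exceeded those of SLC25A28 with MB1-47 (629 and 304) and with DMSO (1137 and 301).

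SLC25A39, which imports glutathione, had 1982, 1964 and 2013 normalized counts in MB1-47 libraries 1, 2 and 3, against 3962, 3628 and 4692 in DMSO libraries 1, 2 and 3. The MB1-47 libraries lay within 50 normalized counts of each other and well below every DMSO library, and the gene fell 2.05-fold (-1.03 ± 0.11, adjusted p = 2.8e-05). SLC25A40, its close paralog, had 2818, 2824 and 2712 normalized counts with MB1-47, against 2254, 2179 and 2339.5 with DMSO. It was higher in all MB1-47 libraries, by 1.23-fold (0.30 ± 0.09, adjusted p = 0.0205), a call lost without MB1-47 replicate 1 (adjusted p = 0.0609) or DMSO replicate 2 (0.0567). Of the pair's counts per kilobase, SLC25A39 made up 63.9, 63.6 and 65.1% with MB1-47, against 81.6, 80.7 and 83.5% with DMSO. The difference of -17.7 percentage points, with its complement in SLC25A40, was the largest in size among the 16 shares compared (exact permutation p = 0.1, adjusted 0.133).

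The dicarboxylate, oxoglutarate and citrate carriers fell. SLC25A10, which exchanges malate or succinate for phosphate, had 72.1, 70.8 and 166 normalized counts in MB1-47 libraries 1, 2 and 3, against 487, 386 and 417 in DMSO libraries 1, 2 and 3. MB1-47 replicate 3 was the highest of its group and still below the lowest DMSO library. The fall was 4.48-fold (-2.16 ± 0.33, adjusted p = 0.000359), the largest of all members that passed, and the change was -2.57 without MB1-47 replicate 3. Of its runs of 31 bases, 43.3% also occur in AC139530.2, which has no entry in the table, so the level is uncertain. SLC25A11, the oxoglutarate/malate carrier of the malate-aspartate shuttle, had 606, 766 and 667 normalized counts with MB1-47, against 1171, 1046 and 1309 with DMSO. SLC25A1, which exports citrate for lipid synthesis, had 455, 629.8 and 613 in the MB1-47 libraries and 789, 797 and 881 in the DMSO libraries. The groups were separate in both, with falls of 1.73-fold (-0.79 ± 0.14, adjusted p = 0.0012) and 1.47-fold (-0.55 ± 0.16, adjusted p = 0.0187). The call of SLC25A1 was lost without MB1-47 replicate 1 (adjusted p = 0.0688), without DMSO replicate 3 (0.0716) and with equal library totals (0.0635). SLC25A20, which brings acylcarnitines in for fatty acid oxidation, stood at 1751 ± 128 normalized counts with MB1-47 and 1531 ± 265 with DMSO (0.21 ± 0.14, adjusted p = 0.268). SLC25A21, an oxodicarboxylate carrier, ranged from 0.197 to 52.6 normalized counts over the DMSO libraries alone and gave no usable comparison (0.62 ± 1.24, adjusted p = 0.732).

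Among the uncoupling proteins, UCP2 fell and the others did not pass. UCP2, the form of lymphoid and myeloid cells, lies on chromosome 11, 73974667 to 73983307 and had 742, 895 and 635 normalized counts in MB1-47 libraries 1, 2 and 3, against 1816, 2127 and 1974 in DMSO libraries 1, 2 and 3. The highest MB1-47 library was below the lowest DMSO library, and the fall was 2.62-fold (-1.39 ± 0.14, adjusted p = 2.5e-05). Its level per kilobase of transcript was 358 ± 61.7 with MB1-47 and 933 ± 73.6 with DMSO (normalized counts, SD, n = 3). For SLC25A30 that level was 471 ± 50.3 with MB1-47 and 381 ± 71.7 with DMSO, so that the mean of UCP2 was below that of SLC25A30 in MB1-47 cells, with spreads close to each other, and well above it in DMSO cells. UCP3, known from muscle, had 16.4, 23.3 and 29.8 normalized counts with MB1-47, against 13.1, 36.4 and 41.6 with DMSO. Its groups overlapped (-0.26 ± 0.62, adjusted p = 0.774), and of the counts per kilobase of the pair UCP2 made up 98.2, 97.9 and 96.4% with MB1-47, against 99.4, 98.6 and 98.3% with DMSO, with separate groups (exact permutation p = 0.1, adjusted 0.133). SLC25A30 stood at 1730.3 ± 185 normalized counts with MB1-47 and 1399.9 ± 263 with DMSO (0.32 ± 0.14, adjusted p = 0.111). It passed without DMSO replicate 1 (adjusted p = 0.0195) and with equal library totals (0.0242). SLC25A14, also named UCP5, stood at 268 ± 25.6 normalized counts with MB1-47 and 218 ± 28.2 with DMSO, without overlap but short of the threshold (0.30 ± 0.21, adjusted p = 0.289).

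SLC25A46, a member of the outer membrane that acts in mitochondrial fission and lipid exchange, had the third highest mean level per kilobase and stood at 6655, 5537 and 5737 normalized counts in MB1-47 libraries 1, 2 and 3, against 5047, 4636 and 4588 in DMSO libraries 1, 2 and 3. It was higher in all MB1-47 libraries, by 1.25-fold (0.33 ± 0.09, adjusted p = 0.0183). The call was lost without MB1-47 replicate 1 (adjusted p = 0.08), DMSO replicate 2 (0.0505) or DMSO replicate 3 (0.0708), and without the intensity trend (0.0747). SLC25A45, for which no substrate is stated here, had 634, 633 and 600.3 normalized counts with MB1-47, against 206, 301 and 446 with DMSO. The MB1-47 libraries were close together while the DMSO libraries differed by more than 2-fold, and the gene rose 2.05-fold (1.04 ± 0.25, adjusted p = 0.00658). The call held under each of the 15 alternative settings, with changes from 0.76 to 1.32. SLC25A35, SLC25A53, SLC25A34 and SLC25A48, likewise without a stated substrate, did not pass, with adjusted p from 0.236 to 0.743. SLC25A34 stood at 23.3 ± 9.94 normalized counts with MB1-47 and 9.92 ± 6.85 with DMSO, with overlapping groups, and SLC25A53 at 51.2 ± 6.59 normalized counts with MB1-47 and 82.3 ± 55.5 with DMSO. SLC25A35 stood at 185 ± 75.8 normalized counts with MB1-47 and 159 ± 12.8 with DMSO, and SLC25A48 at 9.56 ± 2.05 normalized counts with MB1-47 and 13.4 ± 4.62 with DMSO. SLC25A35 overlaps RANGRF, which shares 29.2% of its runs of 31 bases.

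Genes of the machinery that inserts carriers into the inner membrane fell in 9 of 10 cases. Carriers cross the outer membrane after binding the receptor TOMM70, are held by small TIMM chaperones and are inserted by the TIM22 complex. No gene of the list rose. Among all genes tested 19.8% were lower. The median change was -0.68 in the list, against 0.02 over all genes tested. The list was chosen with earlier results of these data known, and its share was not tested against that of all genes. TIMM13, a small chaperone, had 415, 966 and 509.9 normalized counts in MB1-47 libraries 1, 2 and 3, against 1416, 1242 and 1806 in DMSO libraries 1, 2 and 3. TIMM8A, its partner, had 267, 214 and 253 normalized counts with MB1-47, against 592, 651 and 504 with DMSO, and TIMM8B 269, 338 and 333 in the MB1-47 libraries and 767, 447 and 528 in the DMSO libraries. In all 3 genes the MB1-47 libraries were below the DMSO libraries, with changes of -1.32 ± 0.27, -1.25 ± 0.18 and -0.86 ± 0.22 (adjusted p = 0.00262, 0.000298 and 0.00931). TIMM22 itself stood at 645 ± 50.3 normalized counts with MB1-47 and 928 ± 36.4 with DMSO (-0.53 ± 0.13, adjusted p = 0.00816). TOMM70 was the gene that did not pass (0.14 ± 0.09, adjusted p = 0.255); it and TIMM22 were named after their values were seen. With equal library totals 7 of these genes were lower and TOMM70 was higher. The calls of TIMM9 and TIMM29, named after their values were seen, were also lost when single libraries were left out: TIMM9 without MB1-47 replicate 1 or 3 or DMSO replicate 1 or 3 (adjusted p from 0.0577 to 0.123), and TIMM29 without MB1-47 replicate 2 or 3 or DMSO replicate 1 or 3 (0.0894 to 0.124).

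Outer membrane channels and SLC25-like proteins fell in 3 of 5 cases, against 19.8% lower among all genes tested. This list, like that of other inner membrane transporters, was chosen with earlier results of these data known. VDAC1, the channel through which carrier substrates cross the outer membrane, had 3039, 2549 and 2999 normalized counts in MB1-47 libraries 1, 2 and 3, against 8649.7, 7904 and 8946 in DMSO libraries 1, 2 and 3, without overlap (-1.57 ± 0.10, adjusted p = 9.6e-07). MTCH2, an outer membrane relative of the carriers, changed by -0.86 ± 0.11 and VDAC3 by -0.66 ± 0.09, while VDAC2 (-0.16 ± 0.09) and MTCH1 (-0.19 ± 0.11), named after their values were seen, did not pass. Of 16 other inner membrane transporters, 5 fell and 1 rose; the 37.5% called is close to the 38.1% of all genes tested. With equal library totals MICU2, named after its values were seen, was also higher (0.30, adjusted p = 0.0481). Of the 5 sideroflexins, a family that holds mitochondrial serine transporters, 3 fell, against 19.8% lower among all genes tested. This family was set apart from the list after values were seen. SFXN2 stood at 201 ± 25.9 normalized counts with MB1-47 and 874 ± 84.1 with DMSO. SFXN4 stood at 1752 ± 243 normalized counts with MB1-47 and 3621 ± 539.7 with DMSO, and SFXN1 at 5329.6 ± 292 normalized counts with MB1-47 and 10766 ± 1010.5 with DMSO. Their changes were -2.12 ± 0.17, -1.05 ± 0.14 and -1.01 ± 0.09. SFXN3 (0.17, adjusted p = 0.833) and SFXN5 (-0.09, adjusted p = 0.793), named after their values were seen, did not pass. The mitochondrial pyruvate carrier genes MPC1 (0.02 ± 0.13) and MPC2 (-0.08 ± 0.15) and the calcium uniporter MCU (0.03 ± 0.15), named for their known role after values were seen, did not pass.

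Of 25 enzymes that make or use carrier substrates, 20 were tested. Of those tested, 7 fell (35%) and 5 rose (25%), against 19.8% lower and 18.3% higher among all genes tested. The enzyme list, too, was chosen with earlier results of these data known. GOT2, the mitochondrial aspartate aminotransferase of the malate-aspartate shuttle, had 1808, 2269.5 and 1876 normalized counts with MB1-47, against 4097, 4037 and 4382 with DMSO. It fell without overlap (-1.08 ± 0.11, adjusted p = 2.0e-05). TK2, the mitochondrial thymidine kinase that salvages pyrimidine deoxynucleosides, had 1554, 1217 and 1149 in the MB1-47 libraries and 470.1, 537 and 604 in the DMSO libraries and rose 2.42-fold (1.28 ± 0.16, adjusted p = 9.3e-05). The other 4 that rose, named after their values were seen, were ALAS1 (0.49 ± 0.13), NADK2 (0.44 ± 0.11), SHMT2 (0.41 ± 0.08) and GOT1 (0.31 ± 0.11). GOT1 lost its call without MB1-47 replicate 1, 2 or 3 or DMSO replicate 1 or 2 (adjusted p from 0.0597 to 0.141), and ALAS1 without MB1-47 replicate 3 (0.0504). In the malate-aspartate shuttle, the cytosolic GOT1 stood on the other side of 0 from GOT2, MDH1 (-0.58 ± 0.09), MDH2 (-0.78 ± 0.09) and SLC25A11; MDH1 and MDH2 were likewise named after their values were seen.

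**Figure D4:**
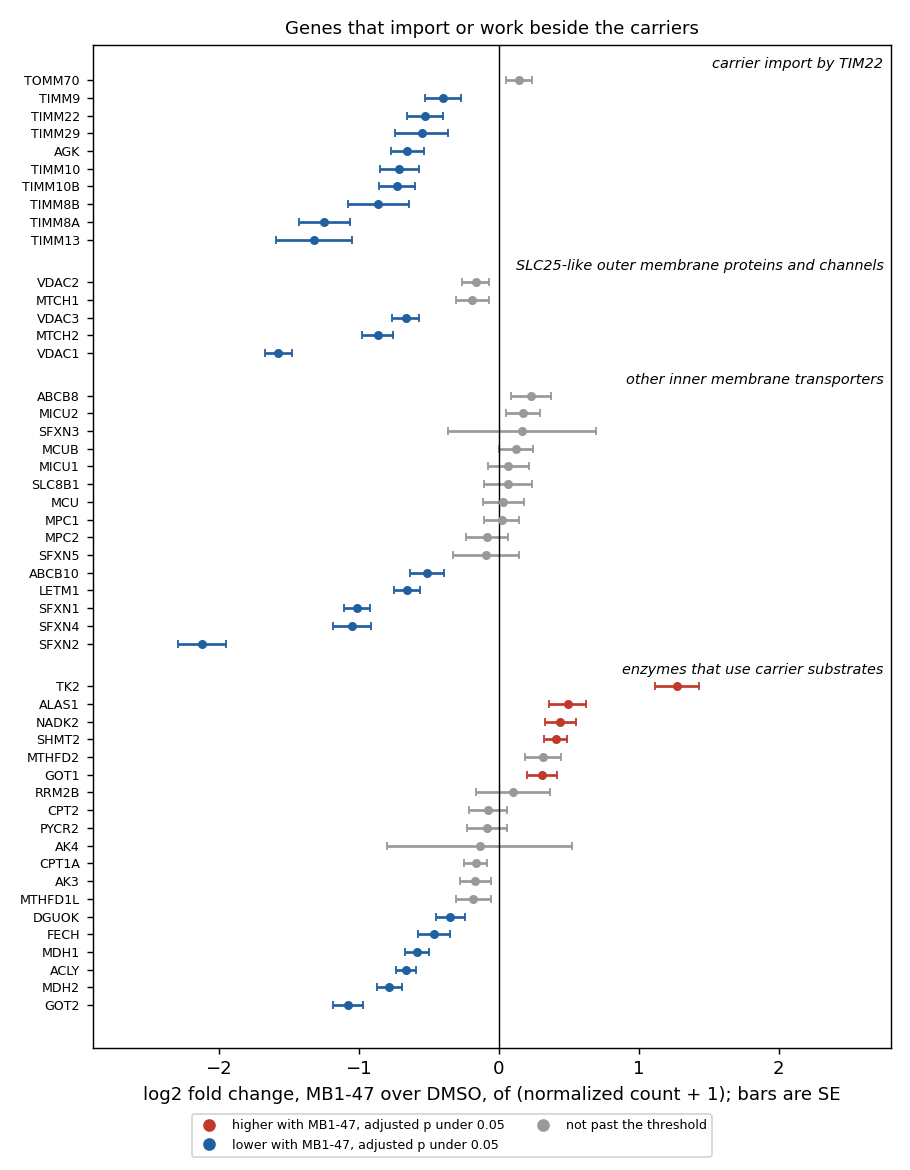
Log2 fold change of MB1-47 over DMSO on the scale of normalized count + 1, with SE bars (3 libraries a group), for tested genes reported here of carrier import, outer membrane channels, other inner membrane transporters and enzymes that use carrier substrates. In the import list 9 of 10 genes are lower at an adjusted p under 0.05; with equal library totals it is 7 and TOMM70 is higher.

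The members differed in how far replicates lay apart, as a coefficient of variation. SLC25A39 was the tightest with MB1-47 (1.23%), and SLC25A21 the widest with DMSO (129%). Spearman's rho between a member's change and its level per kilobase was -0.0963 over the 43 members, a description across genes that share all libraries.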

How the data were processed

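RNA-seq of DND41 cells is represented by the authors' deposited table of normalized counts per gene symbol, treated as a non-negative signal. The submitters' processing notes name kallisto 0.44.0, DESeq and the build GRCh38.p13. The annotation and use of strand are left unstated. Reads that fit several transcripts are divided among them by kallisto. Low values of a library were multiples of a common step, within 0.1, in 61.6% to 68.8% of cases in every library but DMSO replicate 2. The share there was 36.2% with a step of 1.99. That step was probably too large, since LYZ stood at 0.997 in the same library, so this share may be too low. Reads were not recovered, so depth is unknown and no count test was run.

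Genes with a mean of at least 10 were fitted as log2(value + 1) with limma 3.58.1 in R 4.3.3, using an intensity trend. Benjamini-Hochberg adjustment covered all 13465 genes, at a threshold of 0.05. Changes are MB1-47 minus DMSO ± SE, folds are 2 to that power and understate low genes, and group levels are mean ± SD (n = 3). The fit was tested on simulated data. Paralog shares used counts per kilobase of a GENCODE 29 transcript. Alternatives were pseudocounts of 0.5 and 5, no filter and a filter at 50, TMM, quantile and equal-total scaling, no trend, a replicate block and each library left out. Members, classes and lists were chosen with earlier results of these data known. Library values are given for 8 preset members and for called members whose mean was 50 or more; up to 3 genes a list are named by size of change, and others are marked as chosen after their values were seen. Some genes that these rules would name are not reported here; counts over members and lists include them.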

Additional observations from a re-analysis of the deposited data

How the results depend on the processing

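Of 639 member changes recomputed over 15 alternatives, 578 kept their direction and their side of the threshold, 34 (8 members) lost it, 17 (6 members) gained it and 10 (6 members, none past the threshold) changed sign. Of the 7 rises, 3 (SLC25A36, SLC25A45, SLC25A6) and 11 of the 15 falls passed in every alternative. Members that rose numbered 12 with equal library totals and 4 without the trend, and from 3 (without MB1-47 replicate 1) to 9 when 1 library was left out. Falls numbered 12 to 15 when 1 library was left out, and 16 with the filter at 50. With equal totals the all-gene split was 3335 higher and 2063 lower (2458 and 2667 as deposited), 1 import gene and 2 other transporters were higher, and enzymes that rose numbered 3 to 5 with 1 library left out. Changes of sign were seen for SLC25A28 with quantile normalization (-0.014), and with 1 library left out for SLC25A18 (-0.66 to 0.11), SLC25A28 (-0.082 to 0.072), SLC25A35 (-0.17 to 0.36), SLC25A21 (-0.86 to 1.89), SLC25A53 (-0.95 to 0.055) and UCP3 (-0.76 to 0.035). The difference in share was -0.0275 (no length) and -0.0190 (quantile) points for SLC25A4, in place of -0.00702; -5.50 and -2.84 for SLC25A5, in place of -3.70; and, without length, -11.6 for SLC25A37 and -22.7 for SLC25A39. The cause was not tested, except that length weights are part of the share. Same-numbered libraries did not deviate together (correlations 0.0224, 0.0566 and 0.00724). The labels do not say whether the numbers mark a pairing, and it stays unknown. With the replicate block 9 members were higher and 15 lower. The unknown depth limits the 6 members with means under 50.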
